A study of Caenorhabditis elegans with 2 samples.

Results

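Divergent protein-coding promoters are stretches of the worm genome from which a pair of protein-coding genes is read in opposite directions, away from each other. They were chosen by position alone: a summit of the whole-series ranked peak list counted when, within 500 bp of it, a minus-strand protein-coding start lay upstream of a plus-strand start of another gene. The rule found 0.961% of all ranked summits (Wilson 95% interval 0.907 to 1.02), and they fell at 903 distinct gene pairs. Of these summits 30, each at a pair of its own, stood in the conservative thresholded list of 813 peaks and are called listed in what follows. The other 1094 are called unlisted.

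The peaks come from chromatin immunoprecipitation and sequencing (ChIP-seq) of MADF-5 in whole L4 larvae of Caenorhabditis elegans at an age of 50 hours. The culture had been synchronised by bleaching followed by starvation at L1. Strain OP436 carries the transgene wgIs436, in which C01G12.1 (madf-5) is fused to TY1, EGFP and 3xFLAG, with unc-119(+) in the background unc-119(tm4063), and the precipitation used an antibody against GFP. Both biological replicates have this genotype, and the study has 1 group and no second condition. The protein measured is the tagged transgene product in all tissues of the larva together. Replicate 1 had 411 thresholded and 64186 ranked peaks and replicate 2 had 254 and 70113, read depth is unknown, and the control library was not analysed here.

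Divergent promoters are common in the compact genome of C. elegans, where neighbouring genes often share a short upstream region that can hold regulatory sequence for both. Many worm messenger RNAs are trans-spliced, which replaces the original 5' end with a spliced leader, so that an annotated start can lie downstream of the place where transcription begins. The MADF domain is a module that binds DNA and resembles the Myb/SANT fold, named after the fruit fly factor Adf-1. A thresholded peak in ChIP-seq marks a place where the tagged protein was recovered with the DNA, directly or through other proteins, and does not say which of the paired genes, if either, it acts on.

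The windows below are the 101 bp centred on 5 of the 6 listed summits of highest signal, with 2 weaker summits at chaperone genes added for comparison. Of the 6, the chaperone pair supr-1/dnj-28 is not shown, and its window has no match to the element marked below. Signal denotes the deposited peak strength set by the authors' caller, whose scale is unstated in these sources. The windows were read from the RefSeq copy of WBcel235 (ce11), plus strand, 5' to 3'. Capitals mark matches to a heat shock element, written GAANNTTC or TTCNNGAA, the letters around which heat shock factor is known to bind in animals.
F44E5.4/F44E5.5, chrII:11759398-11759498: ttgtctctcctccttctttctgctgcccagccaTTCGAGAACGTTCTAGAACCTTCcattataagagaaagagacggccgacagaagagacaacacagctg
rpl-15/K11H12.8, chrIV:654879-654979: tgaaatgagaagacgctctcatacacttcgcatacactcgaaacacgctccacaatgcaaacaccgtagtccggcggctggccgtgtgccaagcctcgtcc
rpl-20/Y17G9B.5, chrIV:4750016-4750116: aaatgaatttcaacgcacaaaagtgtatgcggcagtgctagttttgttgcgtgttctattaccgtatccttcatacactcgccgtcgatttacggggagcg
rps-23/dpm-3, chrIV:12391287-12391387: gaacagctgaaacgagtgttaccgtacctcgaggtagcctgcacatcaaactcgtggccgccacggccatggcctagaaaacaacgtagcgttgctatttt
sec-15/C28G1.2, chrX:8836065-8836165: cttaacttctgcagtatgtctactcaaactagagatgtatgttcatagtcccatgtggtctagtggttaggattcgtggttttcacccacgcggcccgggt
C47E8.4/hsp-90, chrV:14685698-14685798: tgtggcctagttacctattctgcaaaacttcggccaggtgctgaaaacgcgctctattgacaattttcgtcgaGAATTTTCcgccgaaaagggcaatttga
hsp-16.2/hsp-16.41, chrV:1805153-1805253: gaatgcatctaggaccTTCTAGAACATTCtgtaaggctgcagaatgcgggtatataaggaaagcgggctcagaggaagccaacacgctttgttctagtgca

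The window of the Hsp70 pair F44E5.4/F44E5.5 holds 4 overlapping matches in an unbroken stretch, the small heat shock pair hsp-16.2/hsp-16.41 holds 2 overlapping matches, and the hsp-90 window holds 1. The 3 ribosomal protein windows and the sec-15 window hold none. Over all windows the letters are not rare: GAANNTTC was present in 3 of the 30 listed windows (10%, Wilson 95% interval 3.46 to 25.6), in 6.40% of the 1094 unlisted windows and in 6.40% of 27153 windows at one-way promoters, those with a protein-coding start within 500 bp and no divergent pair. TTCNNGAA was present in 2 listed windows (6.67%, 1.85 to 21.3), in 6.67% of unlisted ones and in 6.25% at one-way promoters. All listed windows with either form belong to chaperone pairs, while the 4th listed chaperone pair, supr-1/dnj-28, has neither within the window.

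Listed peaks were more frequent at divergent promoters than at one-way promoters. Of all divergent summits, the 30 listed ones made up 2.67% (Wilson 95% interval 1.88 to 3.78). The background over all ranked summits was 0.695%, and over the one-way promoters it was 0.843% (229 of 27153, 0.741 to 0.959). Read the other way, the 30 make up 3.69% of the conservative list (2.60 to 5.22) and 11.6% of its 259 summits near a protein-coding start (8.24 to 16.1). The intervals cover counting error only, and neighbouring regions are not replicates of a condition, so no test was made.

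The share differed in the same direction in each replicate's own lists. In replicate 1, 23 of 666 ranked divergent summits were thresholded (3.45%, 2.31 to 5.13), beside 0.731% of 15601 one-way summits (0.609 to 0.877). In replicate 2, which has the shorter thresholded list, the divergent share was 6 of 626 (0.958%, 0.440 to 2.08), beside 0.297% of 16526 one-way summits (0.224 to 0.392). Both divergent shares lay above the one-way share of their replicate without overlap of the intervals.

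Transcripts of small RNA genes stood near some of these promoters, and with such starts left out the order held. A tRNA, snoRNA or snRNA start lay within 500 bp of 6 of the 30 listed summits (20%, 9.51 to 37.3) and of 6 of the 1094 unlisted ones (0.548%, 0.252 to 1.19). Without these summits 24 of 1112 divergent summits were listed (2.16%, 1.45 to 3.19), beside 159 of 26822 one-way summits (0.593%, 0.508 to 0.692). With ribosomal protein gene starts also left out, 18 of 1091 remained listed (1.65%, 1.05 to 2.59), beside 149 of 26719 one-way summits (0.558%, 0.475 to 0.654). How far the small RNA gene contributes to the signal at a given pair was not tested.

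**Figure D1:**
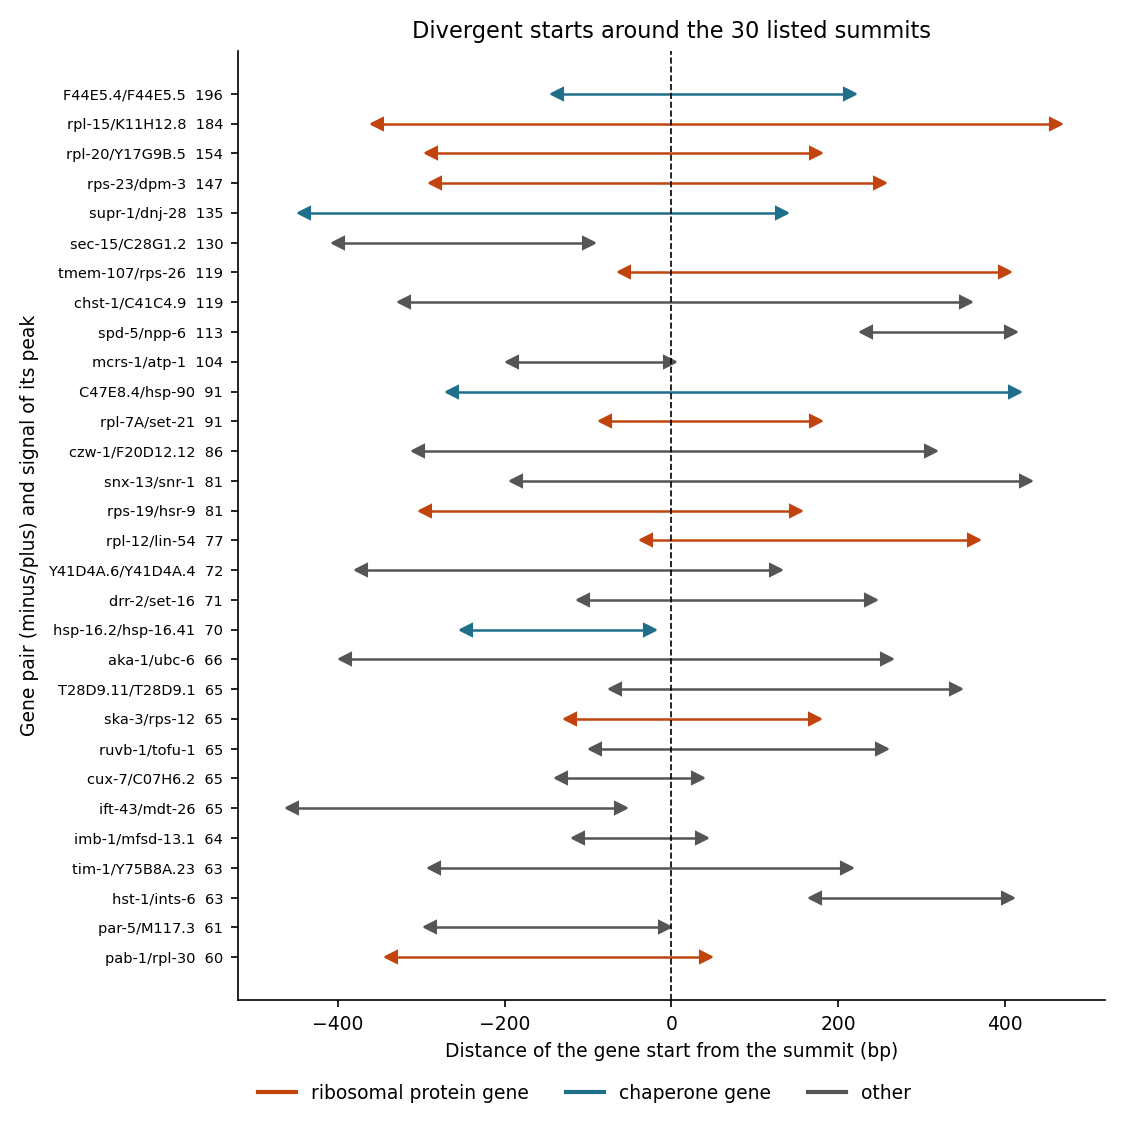
Map of the 30 listed promoters, each drawn around its summit (dashed line). The x axis gives the distance of each gene start from the summit in bp, and pairs are ordered by deposited signal. The gene starts and the summit are marked, and 23 of the 30 summits lie between the starts.

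Ribosomal protein genes were the largest functional group at the listed pairs. Of the 24 divergent pairs with a cytoplasmic ribosomal protein gene, 9 were listed (37.5%, 21.2 to 57.3), against 30 of all 903 pairs (3.32%). By signal these 9 ran from rpl-15/K11H12.8 at 184 to pab-1/rpl-30 at 60.4, so that they include both the 2nd strongest and the weakest listed member. They encode 5 proteins of the large subunit and 4 of the small subunit.

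The strongest of them, rpl-15 (WBGene00004427, eL15 of the large subunit), lies opposite K11H12.8, annotated as a growth hormone-inducible transmembrane protein. Their peak at IV 654817-655040 had rank 43 in replicate 1 and rank 214 in replicate 2. Its summit was 353 bp upstream of the rpl-15 start and 461 bp upstream of the K11H12.8 start, the widest spacing among the listed pairs at 814 bp. The gene rpl-20 (WBGene00004432, eL20) is paired with Y17G9B.5, annotated as a mitochondrial homologue of a Toll pathway intermediate. Its peak at IV 4749954-4750177 had a signal of 154, with ranks 97 and 129. Both of these peaks passed the threshold in each replicate taken alone.

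The small-subunit gene rps-23 (WBGene00004492, uS12) shares its promoter with dpm-3, a putative subunit of dolichol-phosphate mannosyltransferase, which acts in glycosylation. The peak at IV 12391225-12391448 had a signal of 147 and ranks 72 and 320, and its summit lay 17 bp from the midpoint. At tmem-107/rps-26 the signal was 119.4, with ranks 113 and 657. The snoRNA gene F39B2.14 also starts within 500 bp of that summit. At rpl-7A/set-21 the signal was 91.3, and the ranks differed widely, 166 in replicate 1 and 5057 in replicate 2. Here too a snoRNA gene, Y24D9A.9, starts nearby, and set-21 encodes a SET-domain protein.

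The next pairs join a ribosomal protein gene to a gene of chromatin or chromosome biology. The signal was 80.9 at rps-19/hsr-9, with ranks 304 and 1509. At rpl-12/lin-54, where lin-54 encodes the DNA-binding subunit of the DREAM repressor complex, the signal was 77.2 and the ranks were 323 and 3364. At ska-3/rps-12, where ska-3 encodes a spindle and kinetochore-associated homologue and the snoRNA gene F54E7.10 starts nearby, it was 65.3 with ranks 2457 and 761. These 3 pairs differ in replicate support: the first pair and the second stood in the own list of replicate 1, and ska-3/rps-12 stood in neither replicate's own list. The last pair, pab-1/rpl-30, joins the gene for poly(A)-binding protein to that for eL30. Its score of 831 lies beside the lowest score in the list, 830, and its ranks were 1256 and 3131.

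The summit was not placed closer to the ribosomal protein gene than to its partner in any regular way. Across the 9 pairs the median distance was 284 bp to the ribosomal protein start (30 to 400) and 174 bp to the partner (57 to 461). The ribosomal protein start was the nearer in 4 pairs: rpl-15, rpl-7A, rpl-12 and rpl-30. In the other 5 the partner was nearer, most clearly at tmem-107, whose start was 57 bp away while that of rps-26 was 400 bp away. All 9 summits lay between the starts.

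Ribosomal protein genes were also listed at one-way summits, which have no divergent pair within 500 bp. That label depends on the window: at 1000 bp rpl-39, counted here as one-way, stood in a listed divergent pair, rpl-39/rps-30. Of 25 such genes at divergent ranked summits, 9 were listed (36%, 20.2 to 55.5), and of 49 at one-way summits alone, 11 were listed (22.4%, 13.0 to 35.9). Counted by gene the intervals overlap. Counted by summit, of which a gene can have several, 9 of 27 divergent ones were listed (33.3%, 18.6 to 52.2) and 11 of 117 one-way ones (9.40%, 5.33 to 16.1), without overlap. The difference by arrangement in this family thus depends on the unit counted. Over all protein-coding genes the shares were 3.33% of 1802 (2.60 to 4.26) and 1.59% of 13913 (1.39 to 1.81). Both genes of a divergent pair are counted here, so the 60 listed divergent genes rest on 30 peaks and that interval is too narrow. By pair, 30 of 903 were listed (3.32%, 2.34 to 4.70).

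Chaperone genes, whose products help proteins fold or refold, were present in 4 of 21 divergent pairs listed (19%, 7.67 to 40). F44E5.4 and F44E5.5 were put on the chaperone list after their values had been seen. Without that pair 3 of 20 were listed (15%, 5.24 to 36.04), a share no higher than that of the chromatin list described further on. The pair F44E5.4/F44E5.5 (WBGene00009691 and WBGene00009692) encodes Hsp70 proteins on both sides and had the highest signal of all divergent promoters, 196 at II 11759394-11759462. It ranked 9th in the list of 813, had ranks 48 and 124 in the replicates and stood in both own lists. The summit was 137 bp from the F44E5.4 start and 214 bp from the F44E5.5 start. This peak is unusual in form: it is 69 bp wide with the summit off its centre, while the peaks of all unlisted members are 224 bp wide. As the genes are close copies of each other, the 50 bp stretches of this window were compared with the rest of the genome, and 0% of them recurred.

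The second pair with a chaperone on each side is hsp-16.2/hsp-16.41 (WBGene00002016 and WBGene00002018), small heat shock proteins known for strong induction by heat. The labels name no heat treatment. Its peak at V 1805091-1805314 had a signal of 70.1, with ranks 1609 and 703, and stood in neither replicate's own list. The summit lay 25 bp inside the hsp-16.41 start, just outside the interval between the starts. None of its 50 bp stretches recurred elsewhere (0%). The signal of this pair was below the median of 79.1 of the listed members.

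The other chaperone pairs have a chaperone on 1 side. At supr-1/dnj-28 (I 2996243-2996466), where dnj-28 encodes a J-domain co-chaperone, the signal was 135 with ranks 66 and 1761. At C47E8.4/hsp-90 (V 14685636-14685859), where C47E8.4 encodes a FAM50 homologue, it was 91.4 with ranks 242 and 1236. Both stood in the own list of replicate 1 alone. With starts taken as the 5' ends of genes instead of transcripts, the hsp-90 pair was the only one of the 30 to fall outside the rule.

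By gene, 6 of 23 chaperone genes at divergent summits were listed (26.1%, 12.5 to 46.5), and 2 of 42 at one-way summits alone, bag-1 and dnj-13 (4.76%, 1.32 to 15.8). The 6 genes rest on 4 peaks, since both F44E5 genes share one and both hsp-16 genes share another, and the intervals overlap. Without both F44E5 genes 4 of 21 were listed (19%, 7.67 to 40). The one-way label of dnj-13 depends on the window, as at 1000 bp it stood in a listed divergent pair, F54D5.9/dnj-13. Ribosomal protein or chaperone genes together accounted for 13 of the 30 listed pairs (43.3%, 27.4 to 60.8) and for 42 of the 1094 unlisted summits (3.84%, 2.85 to 5.15). Without the F44E5 pair the listed count was 12 (40%, 24.6 to 57.7).

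**Figure D2:**
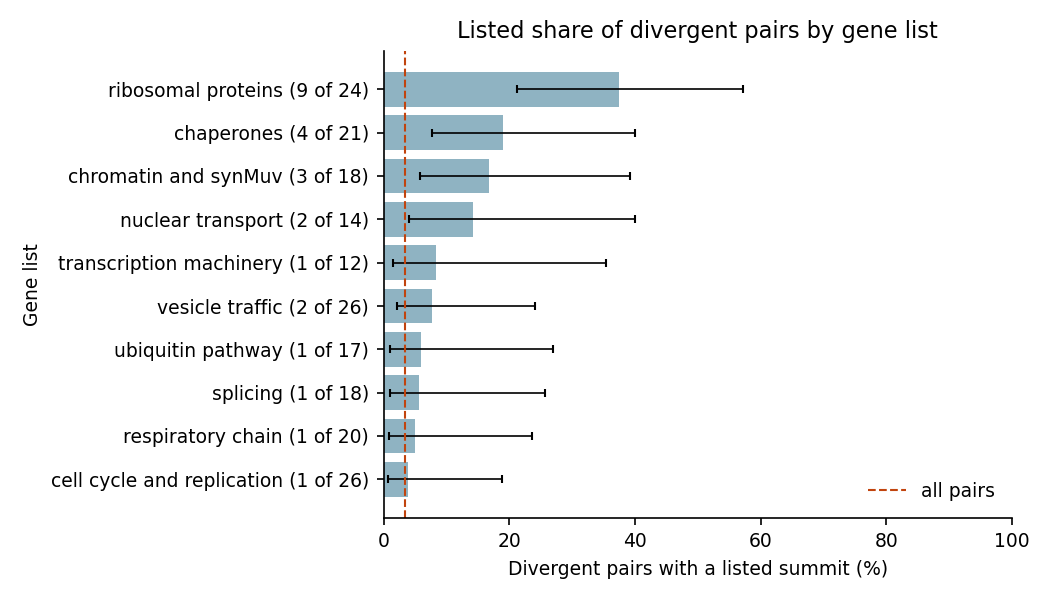
Share of divergent gene pairs in the conservative list for each gene list that has a listed pair, in percent. Wilson 95% intervals are drawn, and the share over all 903 pairs is a reference line. Ribosomal proteins (9 of 24) have the highest share. Chaperones are drawn at 4 of 21, with a pair added after its values were seen. Without that pair they stand at 3 of 20, which is not drawn. Gene lists with no listed pair are not drawn.

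Smaller numbers of listed pairs came from other groups. Regulators of chromatin or members of the synMuv class, which oppose vulval fates, were present in 3 of 18 pairs listed (16.7%). They are drr-2/set-16, with a signal of 70.8 at a gene for a methyltransferase of the MLL type, and the ribosomal pairs of lin-54 and set-21. Nuclear transport genes were present in 2 of 14 (14.3%), namely imb-1, an importin beta, and npp-6, a nucleoporin. Vesicle traffic genes were in 2 of 26 (7.69%), sec-15 of the exocyst and the sorting nexin snx-13.

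Single listed pairs came from 5 further lists. They were mdt-26 (Mediator) among 12 pairs of the transcription machinery, ubc-6 among 17 ubiquitin pairs, snr-1 (Sm D3) among 18 splicing pairs, atp-1 (ATP synthase subunit alpha) among 20 respiratory chain pairs and czw-1 (a ZW10 homologue) among 26 cell cycle pairs. With counts of 1, these shares, between 3.85% and 8.33%, cannot be told from the 3.32% over all pairs.

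Other gene lists, of housekeeping and larval families, had 0 listed pairs. None was listed of 15 pairs with a mitochondrial ribosomal protein gene, of 13 with a translation factor, of 12 with a proteasome gene, of 11 with a ribosome biogenesis gene or of 21 with an RNA decay or germ granule gene. None was listed of 38 pairs with F-box or MATH genes, of 33 with chemoreceptors, of 22 with C-type lectins, of 15 with major sperm proteins or of 9 with collagens. With 3.32% of all pairs listed, counts of 0 in lists of this size do not set the families apart. The 29 gene lists were drawn up with earlier results known, and no list test was made. Apart from the F44E5 genes they go by gene symbol, so a gene of like function under another symbol is not counted. An example is tofu-1, at a listed pair but on no list, so a count of 0 holds for the list and not for the whole function.

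The strongest listed pairs outside the ribosomal protein and chaperone lists were of mixed function. At sec-15/C28G1.2 (X 8836003-8836226, signal 130, ranks 171 and 204, both own lists) the summit lay 99 bp inside C28G1.2, which encodes a serpin-domain protein, and the tRNA gene WBGene00022947 starts nearby. At chst-1/C41C4.9 (II 8107180-8107403, signal 119.2, ranks 147 and 337, both own lists) the summit was 16 bp from the midpoint of a 674 bp interval, with the snoRNA gene C41C4.11 nearby. At spd-5/npp-6 (I 5176309-5176532, signal 113, ranks 277 and 168, both own lists) the summit lay 233 bp inside spd-5, a gene for a centrosome scaffold protein. These 3 complete, with F44E5.4/F44E5.5, rpl-15 and rpl-20, the 6 pairs found in both own lists, and 2 of these 3 have a small RNA gene nearby.

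Below them came mcrs-1/atp-1 (I 12652166-12652389) with a signal of 104, where mcrs-1 encodes an FHA-domain protein and the summit lay 1 bp inside atp-1. At czw-1/F20D12.12 the signal was 85.9 and the summit 3.5 bp from the midpoint, the most central of the listed summits. At snx-13/snr-1 it was 81.5. These are the last of the non-ribosomal, non-chaperone pairs above 80, and of the 3 only snx-13/snr-1 stood in neither replicate's own list.

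The remaining listed pairs had signals between 60.98 and 72.0 and stood in neither replicate's own list. They include Y41D4A.6/Y41D4A.4 (72.0), aka-1/ubc-6 (66.0), T28D9.11/T28D9.1 (65.4) and ruvb-1/tofu-1 (65.2), where ruvb-1 encodes the AAA+ protein RuvB-like 1 and tofu-1 acts in piRNA production. They also include cux-7/C07H6.2 (64.9), ift-43/mdt-26 (64.5) with an intraflagellar transport gene, and imb-1/mfsd-13.1 (63.9), the most closely spaced listed pair at 149 bp. The others, named so that every listed pair is accounted for, are tim-1/Y75B8A.23 (62.9) with a timeless homologue and the snRNA gene sls-2.8 nearby, hst-1/ints-6 (62.7) and par-5/M117.3 (60.98), a pair of 14-3-3 genes. Altogether 22 of 387 pairs with a gene on any list were listed (5.68%, 3.78 to 8.46), against 8 of 516 pairs with none (1.55%, 0.788 to 3.03). Of these 22 pairs, 13 were the ribosomal protein and chaperone pairs. They include the F44E5 pair, put on a list after its values had been seen. The contrast thus draws largely on those groups, and the share of the remaining gene lists without them was not computed.

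The starts of listed pairs lay farther apart than those of unlisted summits, with wide overlap. The median spacing was 394 bp at the 30 listed summits (quartiles 285 to 525, range 149 to 814) and 301 bp at the 1094 unlisted ones (quartiles 184 to 493, range 1 to 927). The 95% intervals of the medians, 301 to 496 and 288 to 319, overlap. Under 100 bp there were 0 listed pairs (Wilson upper limit 11.4%) and 87 unlisted summits (7.95%), a share that lies below that limit. Under 200 bp there were 4 listed (13.3%, 5.31 to 29.7) and 300 unlisted (27.4%, 24.9 to 30.1). Under 300 bp there were 9 listed (30%, 16.7 to 47.9) and 543 unlisted (49.6%, 46.7 to 52.6). Intervals overlap under 200 bp and under 300 bp. The 4 listed pairs under 200 bp are imb-1/mfsd-13.1, cux-7/C07H6.2, spd-5/npp-6 and mcrs-1/atp-1.

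Counted by spacing, the share listed was 4 of 304 summits under 200 bp (1.32%, 0.513 to 3.33). It was 12 of 409 from 200 to 399 bp (2.93%, 1.69 to 5.06) and 14 of 411 at 400 bp or more (3.41%, 2.04 to 5.64). The intervals of all 3 classes overlap, so an order among them was not resolved. Among the listed summits spacing and signal had a Spearman correlation of 0.39 (n = 30), and among the unlisted ones -0.01 (n = 1094). These are descriptions over regions of the same libraries.

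**Figure D3:**
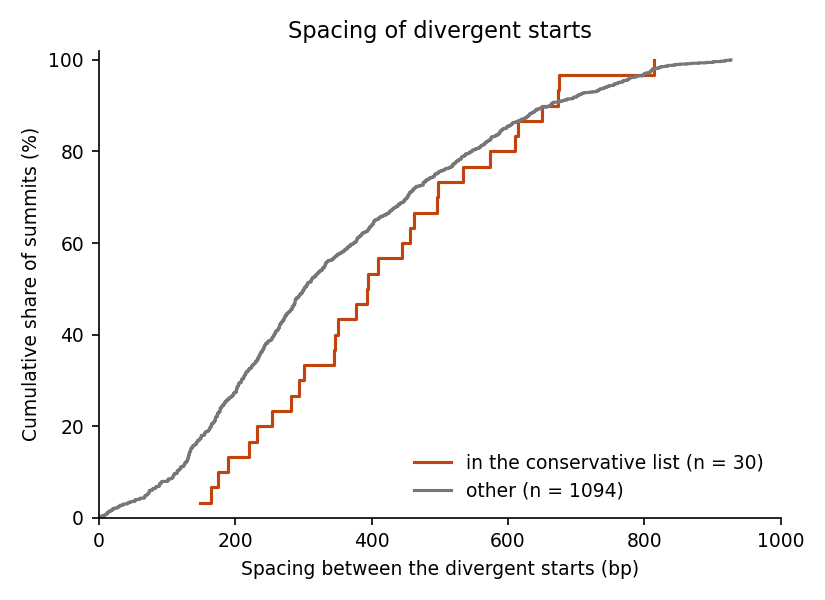
Cumulative share of summits, in percent of each set, by the spacing between the divergent starts in bp, for the 30 listed and the 1094 unlisted summits. The listed summits have no pair under 100 bp and a median of 394 bp, against 301 bp for the unlisted ones.

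Listed summits more often lay between the starts, in the shared upstream region. Of the 30 listed summits 23 lay between them (76.7%, Wilson 95% interval 59.1 to 88.2), against 540 of 1094 unlisted ones (49.4%, 46.4 to 52.3). Of the summits between the starts 23 of 563 were listed (4.09%, 2.74 to 6.06), and of those outside 7 of 561 (1.25%, 0.606 to 2.55). The spacing bears on this, since a wide interval leaves little room outside it within 500 bp. Among unlisted summits whose spacing fell in the range of the listed ones, 149 to 814 bp, 502 of 884 lay between (56.8%, 53.5 to 60.0), so the listed share was higher there too, with overlapping intervals. All 9 ribosomal protein pairs had the summit between the starts. With such pairs left out, a choice made after seeing the data, 14 of 21 listed summits (66.7%, 45.4 to 82.8) and 528 of 1076 unlisted ones (49.1%, 46.1 to 52.1) lay between, and the intervals overlap.

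The same comparison was made within classes of spacing. Under 200 bp, 2 of 4 listed summits and 44 of 300 unlisted ones (14.7%) lay between the starts. From 200 to 399 bp, 7 of 12 listed summits (58.3%, 31.95 to 80.7) and 126 of 397 unlisted ones (31.7%, 27.4 to 36.5) did. At 400 bp or more it was 14 of 14, against 370 of 397 (93.2%). The listed share was the higher in all 3 classes, but each listed count is small and the intervals overlap in every class.

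The listed summits also lay closer to the midpoint. The median distance was 77.5 bp (95% interval of the median 54 to 137) for listed and 161 bp (153 to 175) for unlisted summits. Within 100 bp of the midpoint there were 17 of 30 (56.7%, 39.2 to 72.6) and 367 of 1094 (33.5%, 30.8 to 36.4). This distance, too, is tied to spacing, since the rule leaves widely spaced pairs only summits near their midpoint. Distance to the nearer start differed less, with medians of 124 bp (68 to 174) and 140 bp (128 to 149), and 13 listed summits (43.3%, 27.4 to 60.8) and 37.9% of unlisted ones were within 100 bp of a start. Summit positions are only as fine as the deposited intervals, since nearly all ranked peaks have the summit 112 bp into the peak, at the centre of a width of 224 bp.

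The 7 listed summits outside the interval form a small and mixed group. At mcrs-1/atp-1, par-5/M117.3 and hsp-16.2/hsp-16.41 the summit was 1, 8 and 25 bp past the nearer start, and at ift-43/mdt-26 it was 60 bp past that of mdt-26. At sec-15/C28G1.2, hst-1/ints-6 and spd-5/npp-6 it was 99, 172 and 233 bp inside a gene. Only at these last 3 did the summit lie near or past 100 bp inside a gene.

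**Figure D4:**
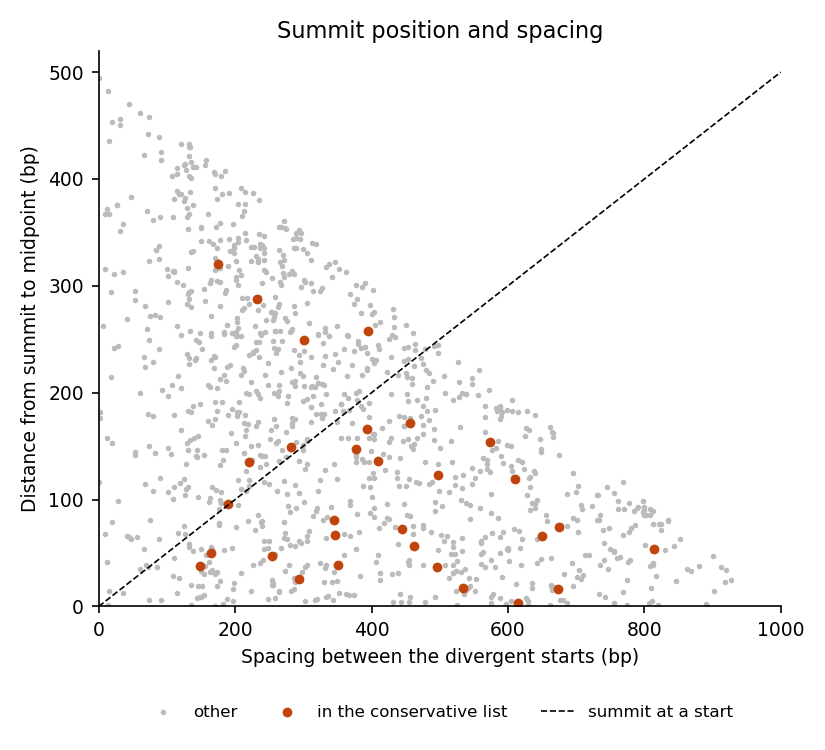
Distance from the midpoint of the starts to the summit against the spacing of the starts, both in bp, for listed and unlisted summits; points below the dashed line lie between the starts. Of the listed summits 23 of 30 lie below the line, and their median distance from the midpoint is 77.5 bp.

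The conservative list was made from agreement between replicates on ranked signal, so a higher signal and better replicate support in it are built in and are given as a description. The listed members had a median signal of 79.1 (60.4 to 196) and the unlisted ones 20.5 (2.03 to 78.8). Of the listed members 15 lay above every unlisted one. Listed one-way promoters had a median of 71.9, and the whole list of 813 had 75.6.

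Support in single replicates was uneven. Of the 30 listed summits 15 (50%, 33.2 to 66.8) had a thresholded summit of replicate 1 within 100 bp, where the background over all ranked summits was 0.338%. For replicate 2 it was 6 (20%, 9.51 to 37.3), where the background was 0.209%. All 6 were also in the list of replicate 1, which left 9 found by replicate 1 only, 0 by replicate 2 only and 15 by neither. Thresholded summits of replicate 1 lay at 7 unlisted summits, and of replicate 2 at 0.

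In the unthresholded lists 29 of the 30 listed summits had a peak from each replicate within 100 bp, as did 201 unlisted ones (18.4%). The exception was cux-7/C07H6.2, which had a rank of 606 in replicate 2 and no ranked summit of replicate 1 within 100 bp. The median rank was 323 in replicate 1 (43 to 2462, n = 29) and 936.5 in replicate 2 (124 to 5057, n = 30), while unlisted summits with a peak had median ranks of 27311 and 28140. The Spearman correlation between the replicates' signals was 0.25 across listed summits (n = 29) and 0.25 across unlisted ones (n = 201). Across both sets together it was 0.47 (n = 230). Replicate agreement decided the split into these sets, so the values within them cover a restricted range of signal.

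**Figure D5:**
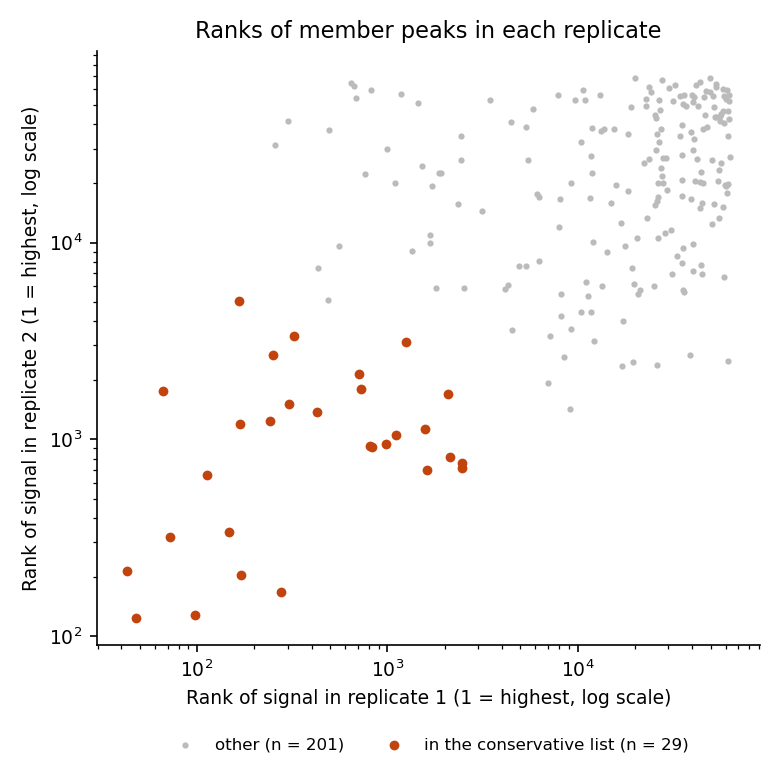
Rank of the nearest own peak within 100 bp in replicate 1 against that in replicate 2, both on log axes, for listed and unlisted summits with a peak in both. The 29 listed summits lie between ranks 43 and 2462 in replicate 1 and up to 5057 in replicate 2.

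Some unlisted divergent summits were as strong as listed ones, and they are named here after their values were seen. Their signals reached the lowest listed value of 60.4 in 5 cases. At F56G4.6/wbp-4 the signal was 78.8 with rank 240 in replicate 1 and no peak of replicate 2 within 100 bp. At ahsa-1/C01G10.7, where ahsa-1 encodes an activator of the Hsp90 ATPase, it was 71.3 with ranks 434 and 7382 and a score of 754. At F25H9.6/F25H9.7, with starts 15 bp apart, it was 69.2 with ranks 256 and 31398. The other two were F01D4.5/ced-5 (64.8, ranks 302 and 41576) and rsr-1/sri-5 (62.2, ranks 557 and 9637). All 5 were high in replicate 1 and lower or without a peak in replicate 2.

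The rule sets its edge at 500 bp. Of members with the farther start over 450 bp away, 2 of 226 were listed, ift-43/mdt-26 and rpl-15/K11H12.8, and their median signal was 20.7. Of summits just outside, with that start over 500 and up to 550 bp away, 2 of 237 were listed, T04D3.5/gcy-35 and mzt-1/enu-3.3, with a median of 20.2. Both shares at the edge lay below the 2.67% over all divergent summits and close to the one-way share of 0.843%, on counts of 2. Divergent and one-way summits were not matched for distance to a start. In the genome 1910 gene pairs have divergent starts at most 1000 bp apart, and 903 of them had a ranked summit under the rule. Of the 903, 207 had more than 1 ranked summit and at most 4, and 7 of the 30 listed pairs had another ranked summit.

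The listed windows were richer in G and C. Their median GC content over 101 bp was 50.5% (95% interval of the median 46.5 to 51.5, range 28.7 to 62.4), against 39.6% (38.6 to 39.6) in unlisted windows. Listed one-way windows had 48.5% (47.5 to 50.5) and all one-way windows 39.6%. The lowest of the listed windows was that of cux-7/C07H6.2 at 28.7%, and the highest was that of T28D9.11/T28D9.1 at 62.4%. How far GC content moves with recovery in the sequencing libraries was not tested.

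Both strands of each window were searched for 11 short letter patterns. The GC box GGGCGG was in 4 listed windows (13.3%, 5.31 to 29.7), those of aka-1, mcrs-1/atp-1, rps-19 and ruvb-1, and in 2.01% of unlisted windows (1.33 to 3.03). It was in 2.81% of one-way windows and 4.80% of listed one-way windows. The letters CTGCGTC were in 3 listed windows (10%, 3.46 to 25.6), those of Y41D4A.6, drr-2 and ift-43, and in 1.65% of unlisted windows (1.04 to 2.59). They were in 3.06% of listed one-way windows (1.49 to 6.17), which overlaps the listed divergent interval. TATAAA was in 0 of 30 (Wilson upper limit 11.4%) and in 10.6% of unlisted windows (8.91 to 12.6). Among listed one-way windows it was in 7.42% (4.69 to 11.6), a share below that upper limit. The GC content of the sets differs as given above, and it bears on how often such letters occur.

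Other patterns had shares close to the unlisted ones. CCAAT was in 20% of listed and 18.9% of unlisted windows, and TTTTTTTT in 6.67% and 6.95%. The core of the tRNA B box, GTTCGA, was in 3.33% of listed divergent windows and 18.3% of listed one-way windows (13.9 to 23.9), against 4.08% of all one-way windows. The listed divergent interval, 0.591 to 16.7, overlaps that of the listed one-way windows. Sequence copies were present in 4 listed windows (13.3%, 5.31 to 29.7) and in 44 unlisted ones (4.02%, 3.01 to 5.36), with intervals that just overlap. The 4 are those of sec-15, czw-1, aka-1 and ruvb-1, where between 19.2% and 38.5% of the 50 bp stretches were found elsewhere. Whether such copies affect the signal there was not tested.

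By chromosome, 10 of the 30 listed summits lay on IV (33.3%, 19.2 to 51.2), against 173 of the unlisted ones (15.8%, 13.8 to 18.1). On I there were 7, on II 5, on III 4, on V 3 and on X 1. Of the 10 on chromosome IV, 5 were at ribosomal protein genes or their partners: rpl-15, rpl-20, rps-23, rpl-7A and rpl-12. The genes carried by the transgene, unc-119 and madf-5, had no listed summit and 1 unlisted summit within 25 kb.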

How the data were processed

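Peak lists of 2 replicates were analysed as deposited, on ce11 (WBcel235). The authors deposited for each peak a score, the irreproducible discovery rate score of at most 1000 (at least 830 in the conservative list), and a signal value from their peak caller, per the deposited file lists. The names of caller and aligner were not given in the sources used here. Depth and totals of reads are unknown. A further 16 unnamed columns of per-sample values were not used.

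Summits, the deposited start plus offset, were joined to 29796 transcript starts of protein-coding genes (Ensembl 115), and for each summit the divergent pair of smallest spacing was taken. This gave 1124 of 116935 ranked summits. A replicate was matched by its own nearest summit within 100 bp. Wilson 95% intervals and intervals of medians by binomial order statistics cover counting error only, and regions are not replicates, so no test was made. The members, the 29 gene lists and the 11 letter patterns were chosen with earlier results of these data known. Genes named are those of the 25 listed members of highest signal, listed members of the gene lists and members in both own lists, with exceptions stated. Sequence copies were exact 50 bp matches elsewhere in the genome. The search was tested on simulated promoters. Alternatives changed the window, the starts, the list and the regions included. Python 3.11.15, numpy 2.4.6, pandas 2.3.3 and scipy 1.17.1 were used.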

Additional observations from a re-analysis of the deposited data

How the results depend on the processing

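With a window of 250 bp in place of 500 bp, 8 summits were listed, 2 of them at ribosomal protein pairs and 2 at chaperone pairs. The median spacing was then 237.5 bp for listed and 183 bp for unlisted summits, and 63.0% of unlisted summits lay between the starts. With 1000 bp, 59 of 4017 summits were listed (1.47%), the median spacings were 574 and 459 bp, and 36.3% of unlisted summits lay between. With 1 summit for each gene pair, unlisted summits had a median spacing of 333 bp and 55.6% lay between the starts. Held to the spacing range of the listed pairs, an alternative chosen after seeing the data, these values were 353 bp and 56.8%. On the own lists of a single replicate the share listed was 0.958% without replicate 1 and 3.45% without replicate 2. The share of unlisted summits between the starts was 47.9% to 54.6%, the ribosomal protein pairs numbered 2 to 8 and the chaperone pairs 1 to 3, all lowest in number without replicate 1. The cause of these shifts was not tested, except that the window and the spacing range limit spacing by construction. The other 92 values of alternatives kept their direction within the limits set, among them leaving out small RNA starts, ribosomal protein pairs, windows with copies elsewhere or the F44E5 pair on the chaperone list, the last 3 also chosen after seeing the data. Some of the 92 had no room to move: calling a summit listed by its score, at or above the lowest in the list, returned the same 30 pairs. None of the 92 is a share of one-way promoters, so they do not bear on that comparison. The other whole-series list shares 23 of the 30 pairs. No paired analysis was possible because both replicates belong to 1 group. Depth is unknown, and 15 of the 30 listed summits stood in neither replicate's own thresholded list.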
